A study of Homo sapiens with 4 samples.

Results

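The 10 genes studied here are used as stemness markers of pancreatic cancer cells and were followed in PANC-1, an established line from a human pancreatic ductal carcinoma. They were taken by symbol and are the surface proteins CD44, CD24 and PROM1 (CD133), the nuclear factors MYC, KLF4, POU5F1 (OCT4), NANOG and SOX2, and the aldehyde dehydrogenases ALDH1A1 and ALDH1A3. All 10 were among the 16878 genes of the deposited tables, and 7 of them reached a mean of 1 FPKM and could be tested. SOX2, PROM1 and ALDH1A1 stayed below that level. FPKM is the number of sequenced fragments per kilobase of transcript and per unit of library depth, so levels can be set side by side between genes. Total RNA was sequenced from 4 PANC-1 libraries, 2 labelled Control and 2 labelled siSIRT1. The second group was made 48 h after transfection with a small interfering RNA (siRNA) against SIRT1, and 48 h is also given for Control. SIRT1 removes acetyl groups from proteins at the cost of NAD. The comparison asks whether stemness genes depend on it. The labels give no genotype beyond the cell line and say of the reference, besides the time, only that it is a control. They do not tell whether libraries of a group came from separate cultures. The p-values therefore measure the spread between these libraries, which may be technical.

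Cancer stem cells are tumor cells that can renew themselves and seed new tumors. In pancreatic cancer they have been sorted by surface proteins such as CD44, CD24 and CD133, or by the activity of aldehyde dehydrogenases, which oxidise retinal and other aldehydes. POU5F1, SOX2, KLF4 and MYC are the factors that can return differentiated cells to pluripotency, and NANOG works with POU5F1 and SOX2 in embryonic stem cells.

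The siRNA that the study lists against SIRT1 has 19 bases, and both strands are shown because the marker that fell most carries a partial match to it. The capitals mark the seed of the guide strand (bases 2 to 8) and the bases of the sense strand that pair with it.

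siSIRT1 sense strand: gugucaugguuCCUUUGCa

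siSIRT1 guide strand: uGCAAAGGaaccaugacac

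SIRT1 mRNA, GRCh37 chr10:69666687-69667813, plus strand, spliced across an exon junction: gtgtcatggttCCTTTGCa

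SIRT1 was the only annotated gene whose canonical transcript held the whole sequence. SIRT1 itself (Entrez gene 23411, GRCh37 chr10:69644414-69678147) was at 10.5 and 10.3 FPKM in Control against 1.80 and 2.05 FPKM in siSIRT1. The groups were far apart, with 18.6% of the Control mean remaining, and the log2 fold change was -1.96 (SE 0.11, adjusted p = 1.33e-05, limma). The labels and the target gene therefore matched.

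Each library held about 8790000 to 9210000 reads, as estimated from the steps between low FPKM values. Across genes, Pearson's r on the log2 scale was 0.995 within Control, 0.993 within siSIRT1 and 0.967 to 0.971 between the groups (genes are not independent replicates). Of 12191 genes tested, 37.1% passed an adjusted p of 0.05, with 24.0% higher and 13.1% lower in siSIRT1. Rises were 64.8% of the calls, but 50.2% with median-of-ratios scaling (2043 higher, 2030 lower). The ductal keratin genes were abundant, KRT8 at 2164 to 2745 FPKM in the 4 libraries. The 5 of 9 acinar and endocrine markers in the tables summed to 0.42 and 0.78 FPKM in Control and to 0.78 and 1.23 FPKM in siSIRT1, with CHGA at 0 throughout. The 9 of 11 stromal, immune and endothelial markers in the tables summed to 63.5 and 65.8 FPKM in Control and to 41.6 and 44.8 FPKM in siSIRT1. Nearly all of that sum was CD68, a lysosomal glycoprotein gene known from macrophages, and without it the sums were 2.43 to 2.82 FPKM. Of the rest, the immune gene PTPRC was highest at 0.97 to 1.29 FPKM, and the stromal gene LUM was at 0 in 3 libraries. The part of this shift in the results below was not tested.

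Of the 7 stemness markers tested, 3 passed an adjusted p of 0.05 (limma, 2 libraries a group), against 37.1% of all genes tested. CD44 and ALDH1A3 fell and CD24 rose. MYC, KLF4, POU5F1 and NANOG did not pass. The same 3 genes also passed a fold change above 1.2 with an unadjusted p under 0.001, thresholds that 18.1% of all genes met. In 4 of the 7 the groups did not overlap, as was the case in 69.0% of all genes. The median log2 fold change of the 7 markers was -0.06, beside 0.07 for all genes tested. In bulk RNA, fewer cells with a transcript and less of it per cell cannot be told apart.

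**Figure D1:**
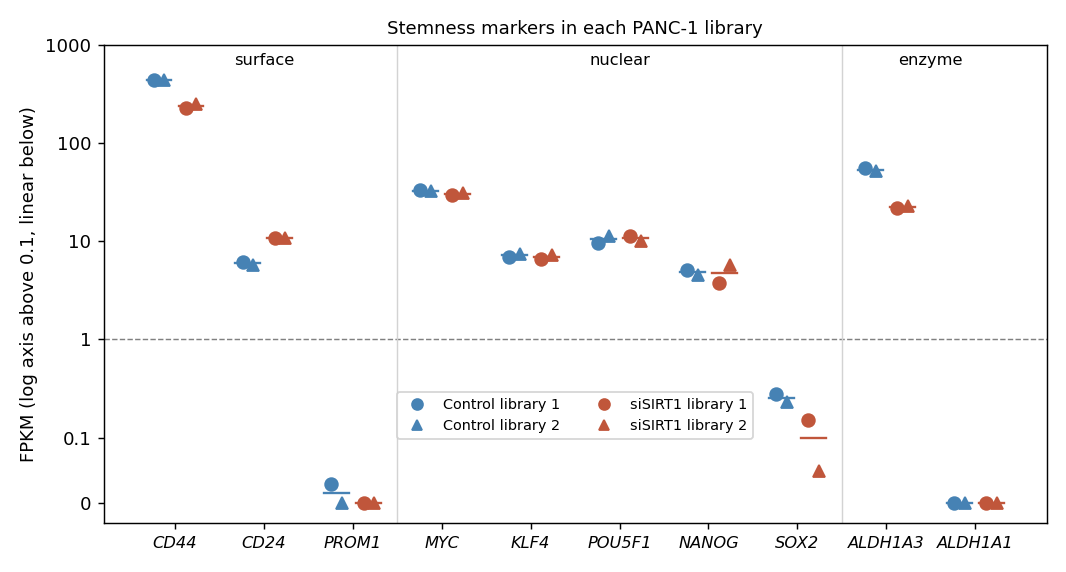
FPKM of the 10 stemness markers (y axis, logarithmic above 0.1 and linear below) in the 2 Control and 2 siSIRT1 libraries, grouped as surface, nuclear and enzyme genes, with short bars at the group means and a dashed line at 1 FPKM. CD44 and ALDH1A3 lie lower and CD24 higher in both siSIRT1 libraries, whereas SOX2, PROM1 and ALDH1A1 lie below the line.

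The levels spanned a wide range. In Control, CD44 was the most abundant marker at a mean of 433 FPKM, followed by ALDH1A3 at 53.5, MYC at 32.8, POU5F1 at 10.5, KLF4 at 7.16, CD24 at 5.99 and NANOG at 4.81 FPKM. The libraries of neighbours in this order did not overlap. After SIRT1 knockdown, MYC at 30.2 FPKM stood above ALDH1A3 at 22.2 FPKM, and CD24, at a mean of 10.7 FPKM, reached the level of POU5F1, whose 2 libraries lay on either side of it. CD44 supplied 78.8% and 79.2% of the summed FPKM of the 10 genes in Control and 72.9% and 73.8% in siSIRT1.

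CD44 (Entrez gene 960, GRCh37 chr11:35160429-35253949, plus strand) encodes the receptor for hyaluronan, and its alternatively spliced variant exons are linked to metastasis and stemness. It was at 434 and 433 FPKM in Control against 225 and 247 FPKM in siSIRT1. Both siSIRT1 libraries were low, and the gap between groups was many times the spread within either. The means of 433 ± 0.205 and 236 ± 15.6 FPKM (SD, n = 2 each) left 54.4% of the Control level. In rank by mean FPKM among all 16878 genes, CD44 moved from place 110 to place 239. The log2 fold change was -0.88, with a 95% confidence interval of -1.03 to -0.73 and an adjusted p of 4.22e-05 (limma). The tables pool the 8 transcripts listed for CD44 into 1 value, so the standard and the variant isoforms were not separated here.

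CD24 (Entrez gene 100133941) encodes a small glycosylated protein held to the membrane by a lipid anchor. It moved the other way, from 6.20 and 5.78 FPKM in Control to 10.7 and 10.8 FPKM in siSIRT1. Again the groups did not overlap. The mean went from 5.99 ± 0.297 to 10.7 ± 0.0919 FPKM (SD, n = 2 each), a 1.79-fold higher level after knockdown. The log2 fold change was 0.75, with a 95% confidence interval of 0.53 to 0.97 and an adjusted p of 6.23e-04 (limma). CD24 has processed copies elsewhere in the genome, which were not analysed here, and how reads shared with them were assigned is not given in the sources used here, so its level carries that uncertainty.

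Within a library the ratio of 2 genes does not depend on the scaling between libraries. The CD44 to CD24 ratio of FPKM was 69.9 and 75.0 in Control against 21.1 and 22.9 in siSIRT1, a 3.3-fold lower mean ratio. CD44 outweighed CD24 in every library. The mean CD44 to MYC ratio went from 13.2 to 7.80 over the same groups. These ratios carry no test.

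PROM1 encodes CD133, a pentaspan membrane protein used to sort stem-like cells. It was listed at 0.03 FPKM in 1 Control library, which is about 1 read, and at 0 in the other 3 libraries. A count of 3 reads would correspond to about 0.084 FPKM, so a fall in PROM1 was not detectable at this depth. No rise beyond that level was seen in siSIRT1.

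Other surface proteins used to mark stem-like carcinoma cells were set beside these. Of 20 such genes, 17 were tested, with 4 higher and 6 lower, beside 24.0% higher and 13.1% lower of all genes. The median log2 fold change of the 17 was -0.01, beside 0.07 for all genes. NT5E (CD73), which makes adenosine outside the cell, fell 3.67-fold, from 38.6 and 40.4 FPKM to 10.5 and 11.0 FPKM. ITGB4, an integrin subunit of hemidesmosomes, fell 2.84-fold, from 42.4 and 41.3 FPKM to 14.7 and 14.8 FPKM. TSPAN8, a tetraspanin, rose from 1.34 and 0.82 FPKM to 4.90 and 4.65 FPKM. THY1 (CD90) rose 2.43-fold. CD9, the most abundant of the list, stayed between 120 and 125 FPKM in the 4 libraries. EPCAM, often combined with CD44 and CD24 in sorting, was at 5.34 and 6.70 FPKM in Control against 11.2 and 7.19 FPKM in siSIRT1, and its adjusted p was 0.0555 (limma). CD44 and CD24 were thus among markers that moved in either direction.

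The ligands, sheddases and cytoskeletal partners of CD44 also went both ways. Of 22 genes, 16 were tested, with 5 higher and 6 lower, beside 24.0% and 13.1% of all genes. Fewer of them were called without 1 or the other Control library. The sheddases ADAM10 and ADAM17, which cut CD44 from the surface, fell 1.58-fold and 1.69-fold. ADAM10 was at 30.3 and 31.9 FPKM in Control against 17.8 and 21.4 FPKM in siSIRT1, and ADAM17 at 13.2 and 14.2 against 7.88 and 8.30 FPKM. HYAL3, of the hyaluronidase family, rose 2.09-fold. EZR (ezrin), which ties CD44 to actin, was at 193 and 196 FPKM in Control against 230 and 229 FPKM in siSIRT1 (adjusted p = 0.00998, limma), and that adjusted p reached 0.173 when 1 library was left out. The osteopontin gene SPP1, a CD44 ligand, was listed at 0 in all 4 libraries.

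Splicing factors that act on CD44 variant exons or are general regulators numbered 21 among the genes tested. Of these, 10 were higher and 1 lower, beside 24.0% and 13.1% of all genes, with a median log2 fold change of 0.17. Scaling changed this split, to 5 higher and 2 lower with median-of-ratios scaling, beside 2043 higher and 2030 lower of all 12191 genes. The median over the 4 scalings tried was 0.09 to 0.11, and that of all genes was 0.0016 with median-of-ratios scaling. Without 1 or the other Control library, the calls fell from 11 to 5 and 4. ESRP1, an epithelial factor known to promote inclusion of CD44 variant exons, was at 0.03 to 0.09 FPKM in every library. Its paralog ESRP2 was at 10.5 FPKM in both Control libraries and at 10.8 and 11.3 FPKM in siSIRT1, with an adjusted p of 0.55 (limma). RBFOX2 was the one factor called lower without such scaling, from 18.7 and 18.8 FPKM to 9.86 and 11.5 FPKM. HNRNPM and SRSF3 rose 1.35-fold and 1.33-fold.

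CD24 is attached by the glycosylphosphatidylinositol transamidase and signals through SRC family kinases. Of 8 such genes tested, LYN rose and GPAA1 and PIGS fell, beside 24.0% higher and 13.1% lower of all genes. The kinase gene LYN went from 6.55 and 6.07 FPKM to 11.8 and 13.9 FPKM, 2.03-fold higher. GPAA1, a transamidase subunit, fell 1.33-fold, from 70.0 and 70.5 FPKM to 53.9 and 52.0 FPKM. The adjusted p of PIGS was 0.0201 (limma) and reached 0.144 when 1 library was left out. SIGLEC10, the inhibitory receptor for CD24 known from macrophages, was at 6.86 and 6.99 FPKM in Control against 7.71 and 7.34 FPKM in siSIRT1 (adjusted p = 0.444, limma).

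**Figure D2:**
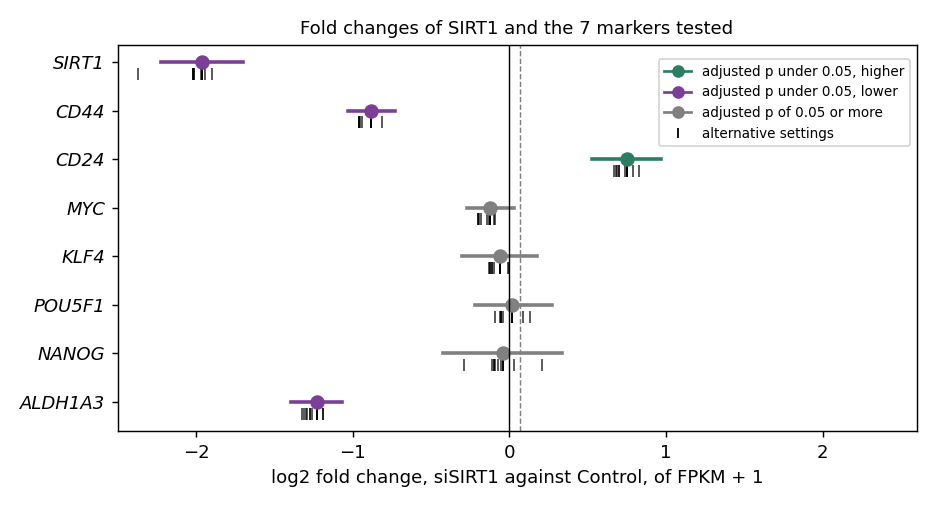
Log2 fold changes of SIRT1 and the 7 stemness markers tested (x axis, siSIRT1 against Control on the log2 of FPKM + 1), with dots at the estimate, bars for the 95% confidence interval, small ticks for the alternative settings and a dashed line at the median of all genes tested. CD44 at -0.88, ALDH1A3 at -1.23 and CD24 at 0.75 lie clear of 0, and the intervals of MYC, KLF4, POU5F1 and NANOG include it.

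Among the 4 nuclear factors that passed the filter, MYC had the lowest adjusted p. MYC, a growth-promoting transcription factor, was at 33.2 and 32.5 FPKM in Control against 29.6 and 30.8 FPKM in siSIRT1. The groups did not overlap, but the siSIRT1 mean was still 92.0% of the Control mean. Its log2 fold change was -0.12, with a 95% confidence interval of -0.27 to 0.03 and an adjusted p of 0.196 (limma). With quantile normalization the log2 fold change was -0.20 and the adjusted p 0.0498, and over all alternatives with 4 libraries the adjusted p ran from 0.0498 to 0.292. The antisense gene CASC11 overlaps 5.3% of the MYC transcript.

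Of 17 genes of the MYC network that were tested, 4 were higher and 2 lower, beside 24.0% and 13.1% of all genes. Under median-of-ratios scaling, 3 were higher and 4 lower, beside 2043 higher and 2030 lower of all 12191 genes. The 6 calls became 3 without Control replicate 1. MXD1, which competes with MYC for MAX, fell from 2.44 and 2.32 FPKM to 1.05 and 1.16 FPKM, whereas the related repressor MXD3 rose 1.36-fold. MAX, the partner MYC needs to bind DNA, was at 10.9 and 11.5 FPKM in Control against 13.6 and 18.7 FPKM in siSIRT1, and its adjusted p of 0.0219 (limma) reached 0.0722 when 1 library was left out. Within a library, the MYC to MAX ratio was 3.05 and 2.83 in Control against 2.18 and 1.64 in siSIRT1.

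A list of 22 genes known as MYC targets in ribosome building and growth was tested in full. Of these, 11 were higher and 0 lower, beside 24.0% and 13.1% of all genes, with a median log2 fold change of 0.21 beside 0.07 for all genes. Under the 4 scalings the median stayed positive at 0.12 to 0.15, and that of all genes was 0.0016 with median-of-ratios scaling. With that scaling 5 were called higher and 0 lower, beside 2043 higher and 2030 lower of all 12191 genes. Without 1 or the other Control library, 4 were called. NME1, a nucleotide kinase, went from 108 and 101 FPKM to 176 and 158 FPKM. NOP16, a nucleolar protein, went from 20.8 and 22.2 FPKM to 33.7 and 28.3 FPKM, and HSPD1, a mitochondrial chaperone, from 152 and 157 to 203 and 205 FPKM. NPM1, the nucleolar gene with one of the highest levels in the list, was at 550 and 564 FPKM in Control against 608 and 569 FPKM in siSIRT1 (adjusted p = 0.377, limma).

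KLF4 (Entrez gene 9314, GRCh37 chr9:110247133-110252763, minus strand), a zinc finger factor of epithelial and pluripotent cells, was at 6.88 and 7.44 FPKM in Control against 6.52 and 7.17 FPKM in siSIRT1. The groups overlapped. Another annotated gene, without a symbol, matches 9.4% of its transcript. The log2 fold change of KLF4 was -0.06, with a 95% confidence interval of -0.30 to 0.18 and an adjusted p of 0.707 (limma). KLF4 made up 5.08% and 5.28% of the summed FPKM of the KLF genes in Control and 5.22% and 5.30% in siSIRT1. Of the 15 KLF and SP genes tested, which include KLF4, 0 were higher and 3 lower, beside 24.0% and 13.1% of all genes. The median log2 fold change of the 15 was -0.13, and -0.19 to -0.17 under the 4 scalings. Median-of-ratios scaling also lowered the median of all genes, from 0.07 to 0.0016. Such a shift cannot turn a negative median positive, so the sign was not tested by it. The 3 were KLF2, KLF11 and SP1, with log2 fold changes of -0.72, -0.54 and -0.31. Without Control replicate 2 the calls fell from 3 to 0, and without Control replicate 1 and without siSIRT1 replicate 1 to 2 each. KLF6, the most abundant KLF gene, was at 38.2 and 40.2 FPKM in Control against 38.8 and 42.1 FPKM in siSIRT1.

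POU5F1 (Entrez gene 5460, GRCh37 chr6:31132114-31148508, minus strand), the POU factor of embryonic stem cells, was at 9.64 and 11.4 FPKM in Control against 11.2 and 10.1 FPKM in siSIRT1. Both siSIRT1 values lay between the Control values. Its log2 fold change was 0.02, with a 95% confidence interval of -0.22 to 0.27 and an adjusted p of 0.896 (limma), and its sign turned under 4 scalings. Among the markers searched for copies, which leave out CD24, POU5F1 had the largest share of its transcript matched. The retrocopy POU5F1B matches 97.6% of the canonical POU5F1 transcript at 97.7% identity, and the pseudogenes POU5F1P4 and POU5F1P3 match 77.0% and 76.7% of it. POU5F1B was listed at 0, 0.07, 0 and 0.04 FPKM, the pseudogenes were not analysed here, and how shared reads were split is not stated, so the POU5F1 level is uncertain.

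NANOG (Entrez gene 79923, GRCh37 chr12:7940390-7951742, plus strand), a homeobox factor of pluripotency, was at 5.08 and 4.55 FPKM in Control against 3.75 and 5.73 FPKM in siSIRT1. The siSIRT1 libraries lay on either side of both Control libraries. The log2 fold change of -0.04 had a 95% confidence interval of -0.42 to 0.34, the widest of the 7, and an adjusted p of 0.878 (limma). Leaving out 1 library moved it between -0.29 and 0.21. Copies are again an issue, since NANOGP8 matches 36.3% of the canonical transcript at 99.3% identity and NANOGP1 matches 17.7% of it. These copies were not analysed here, and how shared reads were split is not stated, so the NANOG level is uncertain too.

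SOX2 (Entrez gene 6657, GRCh37 chr3:181429713-181432224, plus strand), a partner of POU5F1, was at 0.28 and 0.23 FPKM in Control against 0.15 and 0.05 FPKM in siSIRT1. These values stand for about 6 and 5 reads against 3 and 1 reads, from a gene with a single exon and 1 listed transcript. The groups did not overlap. The ratio of siSIRT1 to Control reads per depth was 0.372, and its exact 95% interval, which covers counting error only, ran from 0.0863 to 1.25 and so included no change. Tested without the filter on low values, SOX2 had an adjusted p of 0.115 at -0.19 on the log2 scale (limma).

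Of the 9 SOX genes tested, which do not include SOX2, 0 were higher and 4 lower, beside 24.0% and 13.1% of all genes, with a median log2 fold change of -0.38, and 4 were called whichever library was left out. SOX4, linked to epithelial-mesenchymal transition, fell from 38.5 and 35.3 FPKM to 14.9 and 14.1 FPKM. SOX9, a factor of pancreatic ducts and progenitors, fell from 63.7 and 61.0 FPKM to 40.2 and 41.6 FPKM. SOX21 fell from 3.35 and 3.82 FPKM to 0.61 and 1.08 FPKM, and SOX13 fell 1.36-fold. SOX2 was at most 0.157% of the summed SOX FPKM in any library.

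Of the 24 genes of a wider pluripotency list in the tables, which include POU5F1, NANOG and SOX2, 11 reached the level for testing, and 2 were higher and 1 lower, beside 24.0% higher and 13.1% lower of all genes. TBX3 rose from 3.69 and 4.28 FPKM to 6.30 and 7.14 FPKM. DNMT3B and TFCP2L1 also passed, with log2 fold changes of 0.39 and -0.56, but their adjusted p reached 0.179 and 0.111 when 1 library was left out. The 3 calls of this list became 1 without Control replicate 2 and 2 without each other library. LEFTY1, a secreted inhibitor of NODAL signalling, lay below the level for testing, at 0 and 0.07 FPKM in Control against 0.82 and 0.58 FPKM in siSIRT1, and without the filter its adjusted p was 0.0153 (limma). LIN28A, an RNA-binding protein of pluripotent cells, was at 1.32 and 2.12 FPKM in Control against 1.94 and 1.86 FPKM in siSIRT1. Of the POU family, POU2F1 was the only other gene tested, at 3.07 to 3.29 FPKM in the 4 libraries, and POU5F1 made up 69.1% to 72.4% of the family sum.

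ALDH1A3 (Entrez gene 220, GRCh37 chr15:101417919-101456831, plus strand), which oxidises retinal to retinoic acid, showed the largest change of the 7 tested. It was at 55.1 and 51.9 FPKM in Control against 21.6 and 22.9 FPKM in siSIRT1. The means of 53.5 ± 2.31 and 22.2 ± 0.962 FPKM (SD, n = 2 each) left 41.6% of the Control level. Both siSIRT1 libraries were well below both Control libraries. The log2 fold change was -1.23, with a 95% confidence interval of -1.39 to -1.07 and an adjusted p of 1.12e-05 (limma), which put it at place 94 of the 12191 genes tested, counted from the largest fall. An antisense gene, ALDH1A3-AS1, overlaps 48.3% of the canonical transcript and was not analysed here. Whether the counting used strand is not stated, so reads from the pair cannot be told apart.

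ALDH1A3 was the only one of the 9 markers with a GRCh37 transcript whose 3′ UTR held the 7 bases that pair with the siRNA seed. The capitals mark those 7 bases.

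ALDH1A3 3′ UTR site, GRCh37 chr15:101455733-101455751, plus strand: tgttgaggttaCCTTTGCt

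Of its 19 bases, 11 are identical to the siRNA sense strand in place. Such 7-base matches stood in the 3′ UTR of 15.6% of the tested genes with an annotated one (1866 of 11931). Their median log2 fold change was 0.06, beside 0.08 for the genes without a match. The sets were not alike in 3′ UTR length, with medians of 2975 bases with a match and 1089 bases without. The part of this site in the fall of ALDH1A3 was not tested. CD24 was not analysed for it, and CD44 held no such match.

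ALDH1A1, the classical enzyme of the stem cell aldehyde dehydrogenase assay, was listed at 0 in all 4 libraries. Counting error alone allows up to 3 reads behind a 0 in a library, which is about 0.165 FPKM here. Its relative ALDH1A2 was at 0.04 FPKM in 1 library and at 0 in the others. ALDH1A3 was therefore the one retinal-oxidising ALDH1A gene detected above 1 FPKM.

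Across the 19 ALDH genes, 14 were tested, ALDH1A3 included. Of these, 3 were higher and 4 lower, beside 24.0% and 13.1% of all genes, with a median log2 fold change of -0.07. ALDH1B1, a mitochondrial enzyme, rose 2.1-fold, from 14.0 and 12.0 FPKM to 27.3 and 27.4 FPKM (log2 fold change 1.02, SE 0.09, adjusted p = 9.00e-05, limma). The ALDH1A3 to ALDH1B1 ratio went from 3.93 and 4.33 in Control to 0.791 and 0.836 in siSIRT1, so that the order of the pair was reversed in both siSIRT1 libraries. ALDH1A3 held 26.5% and 25.5% of the summed ALDH FPKM in Control and 11.6% and 12.3% in siSIRT1, while ALDH1B1 went from 6.74% and 5.88% to 14.7% in both. The family sum changed less, from 208 and 204 FPKM to 186 FPKM in both siSIRT1 libraries. ALDH1L2 and ALDH2 had log2 fold changes of -0.64 and 0.51, and their adjusted p reached 0.119 and 0.0898 when 1 library was left out. The 7 calls in the family became 3 without 1 or the other Control library and 4 without siSIRT1 replicate 2.

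**Figure D3:**
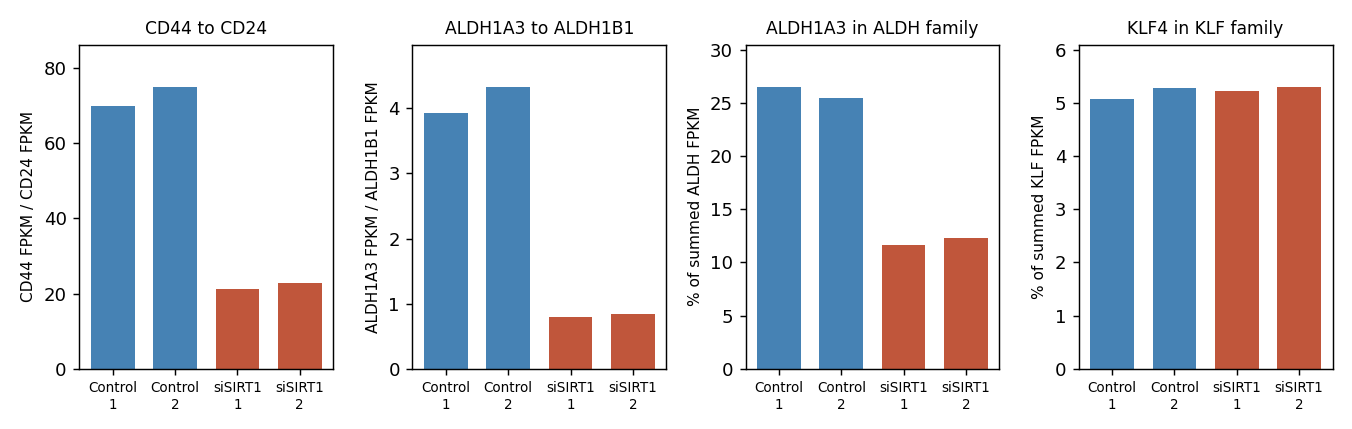
Bars give, for each of the 4 libraries, the CD44 to CD24 ratio, the ALDH1A3 to ALDH1B1 ratio, and the shares of ALDH1A3 in the summed ALDH FPKM and of KLF4 in the summed KLF FPKM (percent), all from 0. The first 3 are lower in both siSIRT1 libraries, and the KLF4 share stays between 5.08% and 5.30%.

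Retinoid genes up and down the pathway from ALDH1A3 moved in both directions. Of 22 genes, 16 were tested, with 6 higher and 4 lower, beside 24.0% and 13.1% of all genes. The median log2 fold change of the 16 was 0.12. CRABP2, which carries retinoic acid to its receptor, fell from 816 and 796 FPKM to 503 and 460 FPKM. FABP5, another carrier of retinoic acid, rose from 18.2 and 19.9 FPKM to 40.5 and 37.2 FPKM. TGM2, a transglutaminase known as a retinoic acid target, rose from 57.5 and 51.2 FPKM to 144 and 139 FPKM. CYP26B1, which degrades retinoic acid, rose 1.75-fold. DHRS9, a retinol dehydrogenase, rose 3.58-fold from a low level of 0.72 and 1.03 FPKM.

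**Figure D4:**
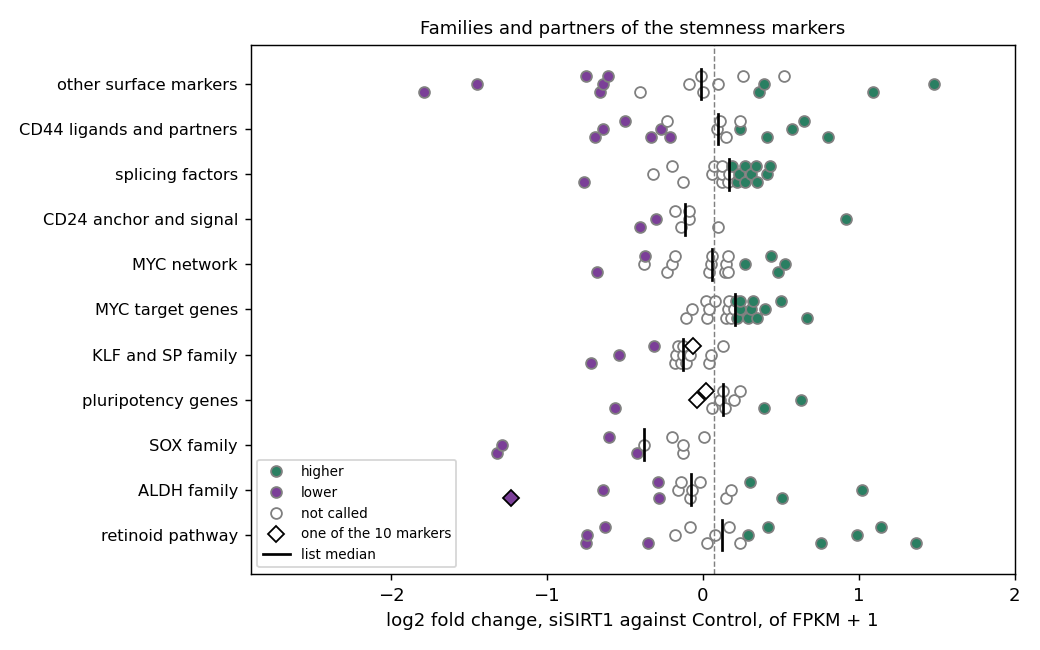
Log2 fold changes (x axis, siSIRT1 against Control on the log2 of FPKM + 1) of the tested genes of 11 lists, 1 point a gene, filled where the adjusted p was under 0.05, diamonds for the stemness markers, black bars at the list medians and a dashed line at the median of all genes. The SOX and KLF lists hold no filled point on the higher side, the MYC targets none on the lower side, and the other lists hold both.

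The promoters of the 3 markers that changed are shown because they differ in base composition. The sequences are the 250 bases before the annotated start, from RefSeq (GRCh38.p14), on the strand of the gene. Capitals mark 3 motifs on either strand, and matches that touch or overlap run together. The GC box was searched as GGGCGG. The CCAAT box was searched by the letters of its name, which lie apart from those of the GC box. The site of KLF factors was searched as CCACCC.

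CD44, GRCh38.p14 chr11:35138921-35139170, plus strand: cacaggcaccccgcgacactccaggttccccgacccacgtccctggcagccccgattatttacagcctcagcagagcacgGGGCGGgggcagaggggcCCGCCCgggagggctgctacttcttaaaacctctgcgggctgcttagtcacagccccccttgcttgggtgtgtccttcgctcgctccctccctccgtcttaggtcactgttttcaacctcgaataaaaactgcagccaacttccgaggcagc

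CD24, GRCh38.p14 chr6:106975628-106975877, minus strand: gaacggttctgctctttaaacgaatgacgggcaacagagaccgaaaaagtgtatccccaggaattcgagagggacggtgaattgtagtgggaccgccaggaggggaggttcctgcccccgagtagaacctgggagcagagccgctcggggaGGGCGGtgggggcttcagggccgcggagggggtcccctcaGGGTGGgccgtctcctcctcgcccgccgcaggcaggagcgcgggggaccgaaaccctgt

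ALDH1A3, GRCh38.p14 chr15:100879581-100879830, plus strand: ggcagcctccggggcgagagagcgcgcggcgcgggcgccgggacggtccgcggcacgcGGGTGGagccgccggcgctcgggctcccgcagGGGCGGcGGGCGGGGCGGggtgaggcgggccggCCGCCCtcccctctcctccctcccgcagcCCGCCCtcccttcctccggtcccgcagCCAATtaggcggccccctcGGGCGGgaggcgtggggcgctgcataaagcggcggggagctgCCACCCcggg

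The ALDH1A3 window was 82.4% G and C with 38 CpG and 6 GC boxes, against medians of 58.0% and 11 CpG over 35116 windows of the same length. CD44 had 62.4% with 15 CpG and 2 GC boxes. CD24, whose first of 3 listed windows is shown, had 65.6% with 20 CpG and 1 GC box. GC boxes stood in 42.6% of all windows, KLF sites in 31.3% and CCAAT boxes in 32.0%. None of the 3 held the TATA box (TATAAA), the E box of MYC (CACGTG), the AP-1 site (TGANTCA) or the octamer of POU factors (ATGCAAAT), which stood in 10.7%, 6.34%, 6.57% and 1.63% of all windows on either strand. A window was found for 8 of the 10 markers, and those of MYC and POU5F1 were not analysed here. The KLF4 window held 1 E box and 4 GC boxes, and that of ALDH1A1 held 1 octamer. These matches describe the letters only.

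The genes whose profile over the 4 libraries lay nearest to that of CD44 were B3GNT5, CNNM1, HSD17B12, ARRB1 and ERO1B. Nearness was the Euclidean distance of log2(FPKM + 1) after centring each gene, over 12190 other genes tested, and ran from 0.049 to 0.066 for these. B3GNT5, a glycosyltransferase of glycolipid synthesis, was at 7.45 and 7.23 FPKM in Control against 3.47 and 3.74 FPKM in siSIRT1, and ARRB1, an arrestin, at 49.6 and 49.4 against 26.5 and 27.8 FPKM. For CD24 they were SMPD1, COL9A2, USB1, HPRT1 and SLC17A5, at distances of 0.029 to 0.043. SMPD1, the acid sphingomyelinase, was at 17.5 and 16.1 FPKM in Control against 29.1 and 29.4 FPKM in siSIRT1, and HPRT1, of purine salvage, at 21.7 and 20.5 against 34.8 and 35.7 FPKM. All 10 of these genes passed the test in the direction of the marker, as their choice by profile fixes.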

How the data were processed

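RNA-seq of PANC-1 cells was analysed in 2 Control and 2 siSIRT1 libraries, grouped by their labels. For each library the authors deposited the FPKM of every gene, isoforms pooled, to 2 decimals. The submitters' processing notes name Bowtie2, HISAT, RSEM and ChIPseeker without versions or roles, and the genome build is not given in the sources used here. FPKM is relative to the library total, so abundant genes that change shift the others. Genes whose mean reached 1 FPKM were tested with limma 3.58.1 (R 4.3.3; lmFit, eBayes with trend) on log2(FPKM + 1), which understates the change of low genes. P-values were two-sided and adjusted by the Benjamini-Hochberg method over all 12191 genes, with a threshold of 0.05. The test and the depth estimate (steps of 1 read in 312 single-exon genes) were tested on simulated data. Depth was sought within a set range and the simulated depths lay inside it, so depths outside that range were not tested.

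The markers and lists were chosen with earlier results of these data known. From each list, at most the 4 called genes with the largest log2 fold changes and the 2 most abundant were named, with cell type markers and near-identical copies named where a value was needed. LIN28A, LEFTY1, ESRP1, ESRP2, EPCAM, SPP1 and SIGLEC10 were added after their values were seen for the functions they have. Symbols were matched through Entrez identifiers to RefSeq (16846 of 16878). Coordinates, transcripts and 3′ UTRs are of GENCODE 44 on GRCh37, where CD24 was not analysed. Copies were sought at 95% identity over at least 100 bases. Alternatives were a pseudocount of 0.1, no filter or a filter at 5 FPKM, 4 scalings, the replicate number as a block, eBayes without trend, and leaving out each library. One duct marker is not reported here.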

Additional observations from a re-analysis of the deposited data

How the results depend on the processing

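The calls of CD44, CD24 and ALDH1A3, their direction and that of SIRT1 held under all 13 alternatives, with adjusted p up to 0.00657, 0.0111, 0.00407 and 0.00422 among the 9 that kept all 4 libraries. The stemness markers called stayed at 3, except for 4 with quantile normalization, where MYC joined at -0.20. POU5F1 turned from 0.02 to -0.05 with quantile normalization, -0.06 with median-of-ratios scaling, -0.05 with upper-quartile scaling and -0.04 with equal FPKM sums. Without 1 library it ran from -0.09 to 0.13, and NANOG, at -0.04, from -0.29 to 0.21. Leaving out 1 library moved the number of genes called from 4521 to between 2691 and 4608, with 2744 without Control replicate 1 and 2691 without Control replicate 2. The 78 calls among 163 genes tested in the wider lists moved to between 46 and 76, with 48 and 46 without those 2 libraries. The CD44 to CD24 ratio was then 3.17-fold to 3.44-fold lower. The lone library left in a group is assumed to vary like the others.

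After removal of the group means, libraries of the same number correlated at 0.123 over genes, in only 2 pairs, and the labels do not say that a number marks a batch, so the fit without the block was kept. Whether the number carries a batch cannot be told from 2 pairs. With the replicate block, 5393 genes and 92 genes of the wider lists passed, the stemness markers called were again 3, and the SIRT1 log2 fold change was -1.96. With 2 libraries a group and an estimated 9210000 reads at most in each, a fall was not resolved for SOX2. A fall was not detectable for PROM1 and ALDH1A1, nor could isoforms be read from these tables.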
